A study of Mus musculus with 43 samples.

Results

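Skin of NZM mice was compared with skin of WT mice after chronic ultraviolet B (UVB) exposure, gene by gene, in 10 of the 43 RNA-seq libraries of the series. The NZM group held 5 libraries, with sample numbers 54, 17, 18, 55 and 56, and the WT group held 5, with sample numbers 58, 27, 28, 29 and 59, and values below are given in these orders. All came from female mice aged 10 to 13 weeks that received 100 mJ/cm2 of UVB once a day for 5 days, with skin taken 24 h after the last exposure. Libraries of unexposed skin, 5 from NZM mice (31 to 35) and 4 from WT mice (41, 43, 44 and 45) of the same sex and ages, were used to read the strain difference without UVB. Genes with a value of 10 or more in at least 4 of the 43 libraries were tested, which was 19170 of 23256. The values are the deposited normalised read counts, which are reads per gene divided by a factor for each library. The labels give the mouse line as NZM, which the series title spells NZM2328, and do not say which inbred strain WT stands for.

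NZM2328 is a lupus-prone mouse line. UVB damages DNA in keratinocytes, which then release alarmins, chemokines and interferons, and sunlight sensitivity of the skin is a known feature of lupus. Type I interferons act through a receptor built from Ifnar1 and Ifnar2, which switches on interferon-stimulated genes through a transcription factor complex that includes Irf9. Mouse epidermis also holds resident gamma-delta T cells, whose thymic selection depends on Skint1, a butyrophilin-like protein, and the Skint family around it is expressed mainly in thymus and skin.

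The 10 libraries held between 18.49 and 37.76 M reads (median 23.61 M), and the deepest was NZM library 56. The skin markers were present in every library: Krt5, a keratin of the basal layer, lay between 80600 and 193000 normalised counts, and Col1a1, the main dermal collagen chain, between 7170 and 30700. The hair content of the samples differed. A score over hair shaft and inner root sheath genes (the mean over the genes of log2 values, each minus the gene's mean over the 43 libraries) was 7.18 in NZM library 17, 8.05 in 55 and 7.77 in 56, against 2.21 in NZM library 18 and -2.64 in 54, and it lay between -2.99 and -1.2 in the 5 WT libraries. In unexposed skin, WT libraries 44 and 45 stood apart, with macrophage scores of 2.15 and 2.59 against -0.18 and -0.04 in the other WT libraries, and 44 also had a hair score of 2.59. Results are therefore given with and without NZM libraries 17, 55 and 56, and, where unexposed skin enters, with and without WT libraries 44 and 45. The first choice leaves only NZM libraries 54 and 18 after chronic UVB, and the second only unexposed WT libraries 41 and 43. A smaller group can lose calls by itself, and why a call was lost was not tested. A fit with the hair score as a covariate was also made, and its counts are given for some lists only. Lists described without them could change too. With this covariate 4 keratinocyte stress and alarmin genes were higher and 1 lower, and 9 gamma-delta T cell and Skint genes were higher and 0 lower.

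After chronic UVB, 1511 genes differed between NZM and WT skin, which is 7.88% of those tested (limma, adjusted p below 0.05). Of these, 822 were higher in NZM skin (4.29% of genes tested) and 689 were lower (3.59%), with a median absolute log2 difference of 1.78. Under quantile normalisation the split was 737 higher and 941 lower. The 5 NZM and 5 WT libraries did not overlap for 1312 genes, or 6.84%, with NZM higher for 3.38% and lower for 3.47%. Among the called genes, 131 had no read in any WT library and 19 had none in any NZM library. Without NZM libraries 17, 55 and 56 the count was 631, and 558 of the 1511 genes were called again in the same direction. With a term for the hair score it was 2660, of which 983 were among the 1511. Leaving out 1 library gave between 995 calls, without NZM library 56, and 1755, without NZM library 18.

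The 3 genes with the largest log2 differences among those chosen by size, called, not overlapping between the strains and with a mean of 100 or more, were Skint genes, which encode butyrophilin-like surface proteins of keratinocytes and thymic epithelium. Skint3, Skint4 and Skint9 were read in every NZM library and in no WT library. Skint3 had 4010, 1560, 4080, 743 and 1380 normalised counts in NZM skin, against 0 in all 5 WT libraries, at least 3460-fold higher with a floor of 3 reads over the WT group. Skint4 had 1500, 739, 1620, 444 and 654 in NZM skin, against 0 in all 5 WT libraries, at least 1460-fold higher. Skint9 had 2500, 896, 2620, 283 and 599 in NZM skin, against 0 in all 5 WT libraries, at least 2030-fold higher. NZM libraries 54 and 18, the 2 with the lower hair scores, held the highest values of all 3 genes. The log2 differences were 10.91 ± 0.43 (SE) for Skint3, 9.78 ± 0.31 for Skint4 and 9.97 ± 0.51 for Skint9, with adjusted p of 4.78e-18 or less in limma. The 3 genes lie next to each other on chromosome 4 (GENCODE vM21 on GRCm38), Skint4 at 112072016 to 112168076, Skint3 at 112232245 to 112300468 and Skint9 at 112385969 to 112433985. Their neighbours on either side were read in WT skin. Skint1, which ends at 112029538, had 1090, 387, 1000, 224 and 492 in NZM skin, against 512, 477, 502, 629 and 394 in WT skin (log2 difference 0.12 ± 0.40, adjusted p = 0.913). Skint2, which starts at 112557194, had 434, 184, 332, 93.3 and 141 in NZM skin, against 334, 232, 494, 518 and 262 in WT skin (log2 difference -0.78 ± 0.46, adjusted p = 0.344). The values of both genes overlapped between the strains.

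Other Skint genes differed less. Skint5 had 637, 162, 441, 59.4 and 93.1 in NZM skin, against 54.9, 51.5, 41.4, 76.3 and 39.6 in WT skin (log2 difference 1.88 ± 0.53, adjusted p = 0.0196). Skint6 had a log2 difference of 1.92 ± 0.61 (adjusted p = 0.0431). Skint8, outside the list used here and added after its values were seen, was lower, at -1.34 ± 0.39 (adjusted p = 0.0239). Of the 11 Skint genes tested, 5 were thus higher in NZM skin and 1 lower, beside 4.29% and 3.59% of all genes. These smaller calls turned on single libraries: Skint5 lost its call without NZM library 54 or 18 (adjusted p up to 0.0796). Skint6 lost its call without any of 7 libraries (up to 0.196), and Skint8 without any of 6 (up to 0.097). Without NZM libraries 17, 55 and 56, Skint5 was at 3.34 (adjusted p = 0.000281) and Skint6 at 3.29 (adjusted p = 0.00372), while Skint8 was at -0.45 (adjusted p = 0.763).

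The Skint difference was also there in unexposed skin. Skint3 had 2980, 4870, 5650, 2080 and 3840 normalised counts in unexposed NZM skin, against 0 in all 4 unexposed WT libraries. Skint4 (1840 to 2900) and Skint9 (2160 to 4270) showed the same in unexposed NZM skin, against 0 in unexposed WT skin. The Skint4 difference was smaller after chronic UVB (interaction -1.51 ± 0.45, adjusted p = 0.0344). That call was lost without WT libraries 44 and 45 (adjusted p = 0.131), without NZM libraries 17, 55 and 56 (0.42), and in 9 of the fits that left out 1 library (up to 0.0828). Nlrp1c-ps, a pseudogene of the NLRP1 inflammasome sensor family on chromosome 11, was read in NZM skin too. It had 298, 94.9, 223, 100.0 and 93.1 in NZM skin, against 0 in all 5 WT libraries, at least 238-fold higher. Mir692-1, a microRNA locus on chromosome 17 whose reads in a poly-A library cannot be told apart from longer transcripts across it, had 157, 115, 158, 102 and 142 in NZM skin, against 0.998, 1.47, 3.27, 0 and 0 in WT skin (log2 difference 6.18 ± 0.38, adjusted p = 5.62e-16).

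**Figure D1:**
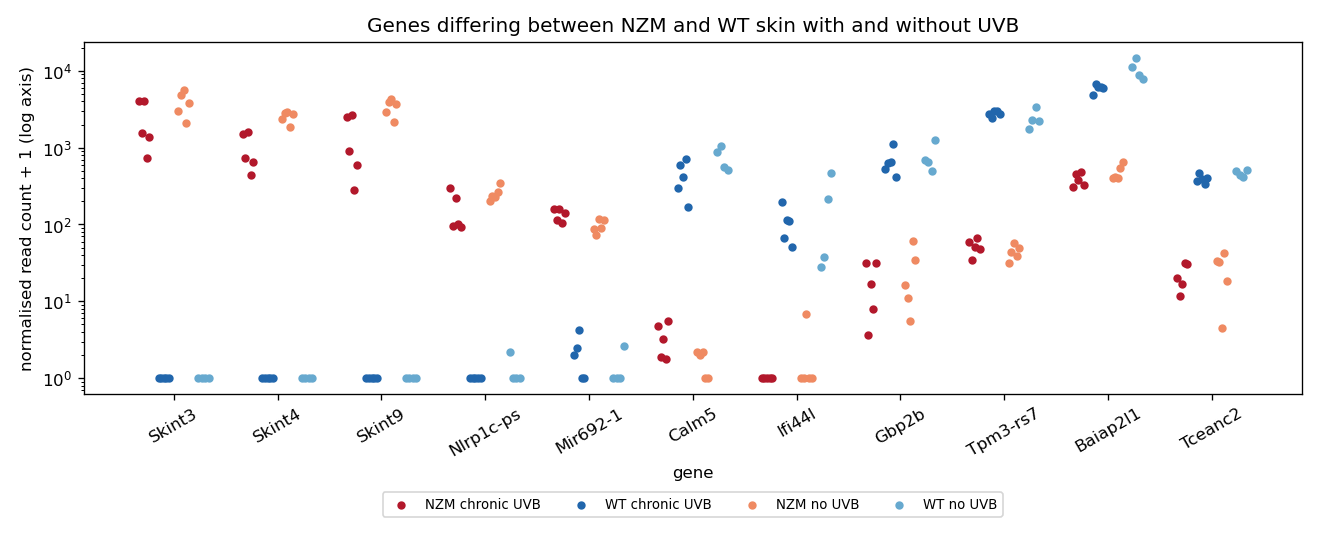
Normalised read count plus 1 on a log axis for 11 genes, with 1 point per library and 4 groups per gene, NZM and WT after chronic UVB and NZM and WT without UVB. Skint3, Skint4 and Skint9 sit at 0 reads in all WT libraries, Ifi44l at 0 in all 5 NZM libraries after chronic UVB, and each gene lies on the same side in both regimens.

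Among the genes that were lower in NZM skin, 12 were named by size of difference. Calm5, a calmodulin-like gene, had 3.79, 0.895, 2.23, 0.771 and 4.57 normalised counts in NZM skin, against 295, 602, 410, 700 and 166 in WT skin (log2 difference -6.96 ± 0.51, adjusted p = 1.71e-13). Baiap2l1, which encodes an adaptor of the actin cytoskeleton, had 305, 447, 375, 482 and 327 in NZM skin, against 4900, 6720, 6230, 6200 and 5920 in WT skin (log2 difference -3.96 ± 0.18, adjusted p = 1.88e-19). Both pairs of groups were far apart. Tceanc2 (log2 difference -4.24 ± 0.43), the serine protease inhibitor Spink6 (-4.07 ± 0.69) and Pon1, an esterase best known from plasma lipoproteins (-4.62 ± 0.91), were lower as well. Pon1 was not called without NZM libraries 17, 55 and 56 (-2.63, adjusted p = 0.26). Tpm3-rs7 (-5.77 ± 0.22), Rps2-ps10 (-6.06 ± 0.15) and Itpa-ps1 (-4.0 ± 0.23) are near-copies or pseudogenes of expressed genes, and Rps2-ps10 lies within Pde6a (-5.64 ± 0.60), so their reads may be divided between copies by the counting. Of the 12, 11 were also called lower in unexposed NZM skin, and Cxcl2 was called higher there.

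Across all genes, 595 of the 1511 calls after chronic UVB were also called in the same direction in unexposed skin, 332 higher and 263 lower. That is 39.4% of the calls after chronic UVB and 20.7% of the 2868 calls (15.0% of genes tested) in unexposed skin. A further 55 were called in opposite directions. The 2 comparisons use different libraries but share 1 estimate of the spread per gene. The difference between the 2 strain differences, tested as an interaction, was called for 1454 genes (7.58%), among them 303, or 20.1%, of the 1511. Without WT libraries 44 and 45, 1197 genes were called in unexposed skin and 296 in the interaction.

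**Figure D2:**
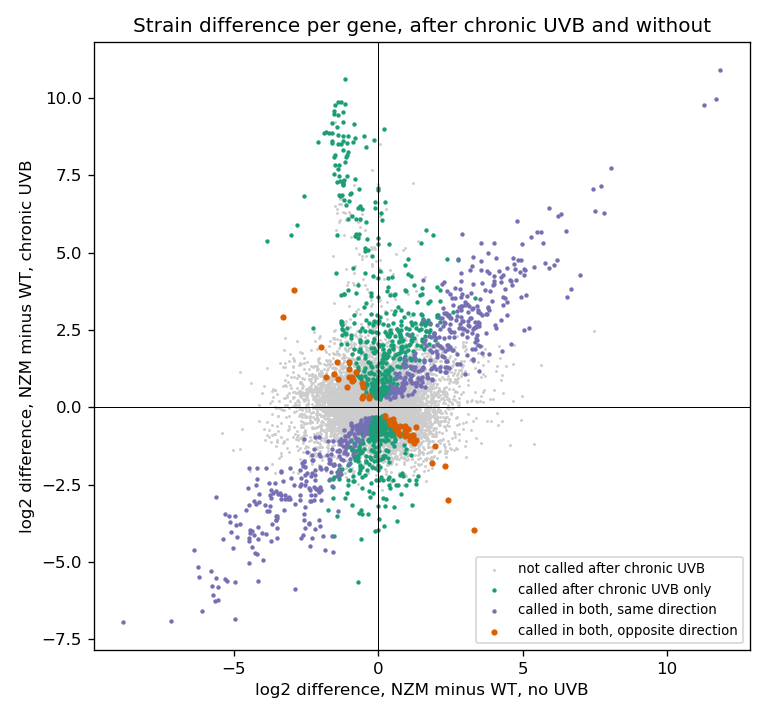
Log2 difference of NZM minus WT without UVB (horizontal axis) and after chronic UVB (vertical axis) for each of 19170 genes. The 595 genes called in both in the same direction lie on the same side of 0 on both axes, and the 55 called in opposite directions lie on opposite sides.

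Of the type I interferon-stimulated genes, none was higher and several were lower in NZM skin after chronic UVB. In the list of 38, 7 were lower and 0 higher, beside 3.59% and 4.29% of all genes tested. The median log2 difference was -0.72, beside -0.01 over all genes tested. At an unadjusted p below 0.05 the list held 15 genes, and edgeR and DESeq2 on the recovered reads called 7 and 9 lower and 0 higher. Without NZM libraries 17, 55 and 56, 1 was lower and the median was -0.29, and with the hair covariate 4 were lower and 1 higher. In unexposed skin 4 genes of the list were lower and 0 higher, with a median of -0.47 (7.49% of all genes were lower there). Without WT libraries 44 and 45, 2 were lower in unexposed skin and the median was 0.31. To show what lies upstream of these genes, the 250 bases before the annotated start of 4 of them are given. They are from RefSeq on GRCm38.p6, the reference genome, whose sequence may differ from that of the mouse lines of the study. Capitals mark the core of the interferon-stimulated response element, GAAANNGAAA on either strand, and the kB core, GGGNNTTCC on either strand. The promoters are those of Cxcl10 (chr5:92348890-92349139, minus strand), Gbp2b (chr3:142594597-142594846, plus strand), Isg15 (chr4:156200819-156201068, minus strand) and Ifi44l (chr3:151762892-151763141, minus strand).
Cxcl10: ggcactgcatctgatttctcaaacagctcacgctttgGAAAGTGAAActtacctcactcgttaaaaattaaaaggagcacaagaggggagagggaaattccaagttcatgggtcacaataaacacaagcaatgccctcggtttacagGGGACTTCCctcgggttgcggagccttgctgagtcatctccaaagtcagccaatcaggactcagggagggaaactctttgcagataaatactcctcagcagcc
Gbp2b: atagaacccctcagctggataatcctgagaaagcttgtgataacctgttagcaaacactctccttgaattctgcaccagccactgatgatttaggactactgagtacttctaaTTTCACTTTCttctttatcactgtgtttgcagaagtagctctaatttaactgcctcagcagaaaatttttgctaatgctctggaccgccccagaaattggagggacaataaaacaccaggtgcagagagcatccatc
Isg15: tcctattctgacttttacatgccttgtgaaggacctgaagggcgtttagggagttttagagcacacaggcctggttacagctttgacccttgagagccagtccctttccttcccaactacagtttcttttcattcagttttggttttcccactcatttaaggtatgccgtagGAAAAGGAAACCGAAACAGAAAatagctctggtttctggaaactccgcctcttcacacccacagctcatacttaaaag
Ifi44l: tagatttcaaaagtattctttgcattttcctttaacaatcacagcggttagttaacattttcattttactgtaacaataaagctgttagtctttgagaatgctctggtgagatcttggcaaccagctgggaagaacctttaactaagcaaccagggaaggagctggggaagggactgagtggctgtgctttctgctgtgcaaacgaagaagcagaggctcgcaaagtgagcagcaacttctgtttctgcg
Counted from the start, the response element core begins at -213 in Cxcl10, at -137 in Gbp2b and at -78, -72 and -66 in Isg15, where the matches overlap, and the kB core begins at -103 in Cxcl10. Neither set of letters is in this window of Ifi44l. Of 28 genes of the list with a promoter in the table, 11 hold the response element core and 2 the kB core, beside 3.5% and 5.6% of all 27025 genes. These matches describe the letters only.

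Ifi44l, an interferon-stimulated gene, had no read in any of the 5 NZM libraries, against 196, 64.7, 114, 109 and 49.2 normalised counts in WT skin, at least 218-fold lower. Its neighbour Ifi44 had 124, 31.3, 25.6, 31.6 and 96.6 in NZM skin, against 588, 440, 290, 440 and 183 in WT skin (log2 difference -2.83 ± 0.71, adjusted p = 0.00777). Gbp2b, an interferon-induced guanylate-binding protein, had 30.3, 2.69, 15.6, 6.94 and 30.3 in NZM skin, against 534, 633, 643, 1110 and 419 in WT skin (log2 difference -5.54 ± 0.77, adjusted p = 1.8e-06). None of these groups overlapped. In unexposed skin Ifi44l (-6.11 ± 0.55) and Gbp2b (-5.31 ± 0.82) were lower in NZM skin as well, with interaction adjusted p of 0.739 and 0.928. Gbp2b has close relatives in the same cluster, so reads may be divided between them.

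The remaining calls of the interferon list were smaller. Eif2ak2, the kinase PKR that senses double-stranded RNA, was at -0.90 ± 0.19 and Isg20, an exonuclease, at -1.36 ± 0.34. Irf9 and Ifi35 were at -0.72 ± 0.21 and -0.81 ± 0.25. Isg15, a ubiquitin-like modifier, had 413, 192, 56.8, 226 and 353 in NZM skin, against 1090, 552, 224, 713 and 259 in WT skin, and the values overlapped (log2 difference -1.22 ± 0.58, adjusted p = 0.215). Irf7, the factor that amplifies interferon production, was at -0.20 ± 0.58 (adjusted p = 0.903) and Ifnar1 at 0.04 ± 0.13 (adjusted p = 0.914). Without NZM libraries 17, 55 and 56, Eif2ak2 was at -0.68 (adjusted p = 0.194), Ifi44 at -2.65 (0.157) and Isg20 at -1.13 (0.238), and Irf9 and Ifi35 had adjusted p of 0.356 and 0.526, none of them called.

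In a list of 21 genes of MHC class I and of the interferon gamma response, 2 were lower and 0 higher by limma, edgeR and DESeq2 alike. Over all genes tested, limma called 3.59% lower and 4.29% higher. Of the 21, 6 had an unadjusted p below 0.05. The median log2 difference was -0.56. Without NZM libraries 17, 55 and 56 the counts were 0 and 0 (median -0.04), and with the hair covariate 4 were higher and 0 lower (median 0.23). Gbp7 had 279, 72.5, 150, 142 and 195 in NZM skin, against 764, 568, 478, 759 and 350 in WT skin (log2 difference -1.86 ± 0.48, adjusted p = 0.00951). H2-Q7, a non-classical MHC class I gene with close copies, was at -1.73 ± 0.46 (adjusted p = 0.0124). Of 20 nucleic acid sensors and adaptors, 2 were higher and 1 lower (4.29% and 3.59% of all genes were). With the hair covariate 3 were higher and 0 lower. Ifi202b, an interferon-inducible protein of the DNA-binding p200 family that lies in a lupus susceptibility region in mice, had 198, 52.8, 179, 74 and 45.1 in NZM skin, against 527, 380, 484, 438 and 260 in WT skin (log2 difference -2.14 ± 0.51, adjusted p = 0.00523). Aim2, the DNA sensor of an inflammasome, was at 1.44 ± 0.41 (adjusted p = 0.0211) and its relative Mnda at 2.30 ± 0.66 (adjusted p = 0.0232). Both lost their calls when any of 4 libraries was left out, with adjusted p up to 0.0851 for Aim2 and 0.0881 for Mnda. Family members are similar in sequence, and reads may be divided among them. None of Gbp7, H2-Q7, Ifi202b, Aim2 and Mnda was called without NZM libraries 17, 55 and 56 (adjusted p between 0.0542 and 0.527).

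Some genes differed between the strains in another way with UVB than without it. Spink7, an inhibitor of serine proteases in squamous epithelium, had 449, 290, 437, 10.0 and 218 normalised counts in NZM skin after chronic UVB, against 2.0, 0, 0, 0 and 0 in WT skin. It had no read in any of the 9 unexposed libraries. The groups did not overlap, although NZM library 55 was far below the other 4. The log2 difference was 7.09 ± 0.90 (adjusted p = 2.65e-07), and the interaction was 7.09 ± 1.32 (adjusted p = 0.00128). Spink7 stayed called without NZM libraries 17, 55 and 56 (interaction 8.48, adjusted p = 0.00197) and without WT libraries 44 and 45 (interaction adjusted p = 0.0125).

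Cxcl2 and Cxcl10 were lower in NZM skin after UVB and higher without it. Cxcl2, which attracts neutrophils, had 17.0, 0, 6.68, 5.4 and 3.43 in NZM skin after chronic UVB, against 349, 166, 24.0, 62.6 and 37.5 in WT skin (log2 difference -3.96 ± 0.92, adjusted p = 0.00387). In unexposed skin it had 5.84, 16.1, 16.2, 2.44 and 13.6 in the NZM libraries, against 0 in all 4 WT libraries. Every NZM library was below every WT library after UVB and above every WT library without it (interaction -7.28 ± 1.34, adjusted p = 0.00119). Cxcl10, an interferon-induced attractant of T cells whose promoter is printed above, had 95.6, 18.8, 49.0, 37.8 and 40.0 in NZM skin after chronic UVB, against 335, 103, 69.7, 307 and 143 in WT skin. In unexposed skin it had 78.2, 243, 94.8, 122 and 399 in the NZM libraries, against 23.2, 26.7, 26.6 and 52.4 in the WT libraries. The Cxcl10 groups overlapped after chronic UVB, where NZM library 54 lay above WT library 28, and not without UVB. The log2 difference was -1.90 ± 0.54 after chronic UVB (adjusted p = 0.0209) and 2.30 ± 0.57 without UVB (adjusted p = 0.00422), with an interaction of -4.20 ± 0.78 (adjusted p = 0.00128). Cxcl11, which binds the same receptor and is annotated as a polymorphic pseudogene, was at -3.51 ± 0.66 after chronic UVB (adjusted p = 0.000264). The interactions of Cxcl2 and Cxcl10 stayed called without WT libraries 44 and 45 (adjusted p = 0.0115 and 0.00695) and without NZM libraries 17, 55 and 56 (0.0337 and 0.037). Their differences after chronic UVB did not stay called without these 3 NZM libraries (adjusted p = 0.282 and 0.519), nor did that of Cxcl2 in unexposed skin without WT libraries 44 and 45 (0.118). The Cxcl10 difference after chronic UVB also lost its call without NZM library 17 or WT library 58 or 29 (up to 0.0768).

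Cxcl1, a close relative of Cxcl2, had 79.5, 17.9, 46.8, 67.1 and 40.0 in NZM skin after chronic UVB, against 24.0, 14.7, 10.9, 22.8 and 6.42 in WT skin, and was not called (log2 difference 1.59 ± 0.71, adjusted p = 0.181). The cytokine Il17a was read at low counts in 4 of 5 NZM libraries, between 3.43 and 25.6, and at 0 in NZM library 55, against 0 in all 5 WT libraries (adjusted p = 0.0359). The call was lost in 9 of 10 fits that left out 1 chronic UVB library, all but NZM library 55 (adjusted p up to 0.107). Ccl2, the main monocyte attractant, did not pass the test (0.20 ± 0.66, adjusted p = 0.915), nor did the cytokine Il1b (-1.69 ± 0.86, adjusted p = 0.256).

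Cyp2g1 and Foxi3 were named for their negative interactions. Cyp2g1, a cytochrome P450, had 2370, 4980, 5370, 328 and 1260 in NZM skin after chronic UVB, against 2890, 44300, 20800, 9880 and 31200 in WT skin (log2 difference -2.99 ± 0.72, adjusted p = 0.00547; interaction -5.38 ± 1.05, adjusted p = 0.00208). Foxi3, a transcription factor of ectodermal appendages, had 95.6, 31.3, 41.2, 11.6 and 12.6 in NZM skin, against 709, 205, 192, 253 and 174 in WT skin (log2 difference -3.15 ± 0.89, adjusted p = 0.0213; interaction -4.33 ± 1.30, adjusted p = 0.0346). The Cyp2g1 groups overlapped and the Foxi3 groups did not. Neither difference after chronic UVB was called without NZM libraries 17, 55 and 56 (adjusted p = 0.268 and 0.52). The Foxi3 difference was also lost without NZM library 55 or 56 or WT library 58 (up to 0.076), and its interaction without any of 7 libraries (up to 0.101). Gsdmc4, of the pore-forming gasdermin C cluster, Mcpt2, a mast cell protease, and Chil4, a chitinase-like lectin, were chosen after their values were seen. Gsdmc4 had 1.89, 0, 0, 2.31 and 0 in NZM skin, against 78.8, 48.6, 99.1, 106 and 71.7 in WT skin (interaction -4.95 ± 0.85, adjusted p = 0.000562). Mcpt2 had 0.946, 0, 0, 0 and 0 in NZM skin, against 19.0, 8.83, 13.1, 38.7 and 15.0 in WT skin, and no read in any unexposed library. Chil4 had 0, 0, 0, 0 and 1.14 in NZM skin, against 24.9, 7.36, 10.9, 33.0 and 24.6 in WT skin. In Gsdmc4, Mcpt2 and Chil4, WT skin after chronic UVB was the highest of the 4 groups. The interactions of Mcpt2 (-3.96 ± 0.58) and Chil4 (-3.87 ± 0.57) were called by limma, but at these low counts neither was called by edgeR or DESeq2 on the recovered reads, and edgeR did not call that of Spink7.

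**Figure D3:**
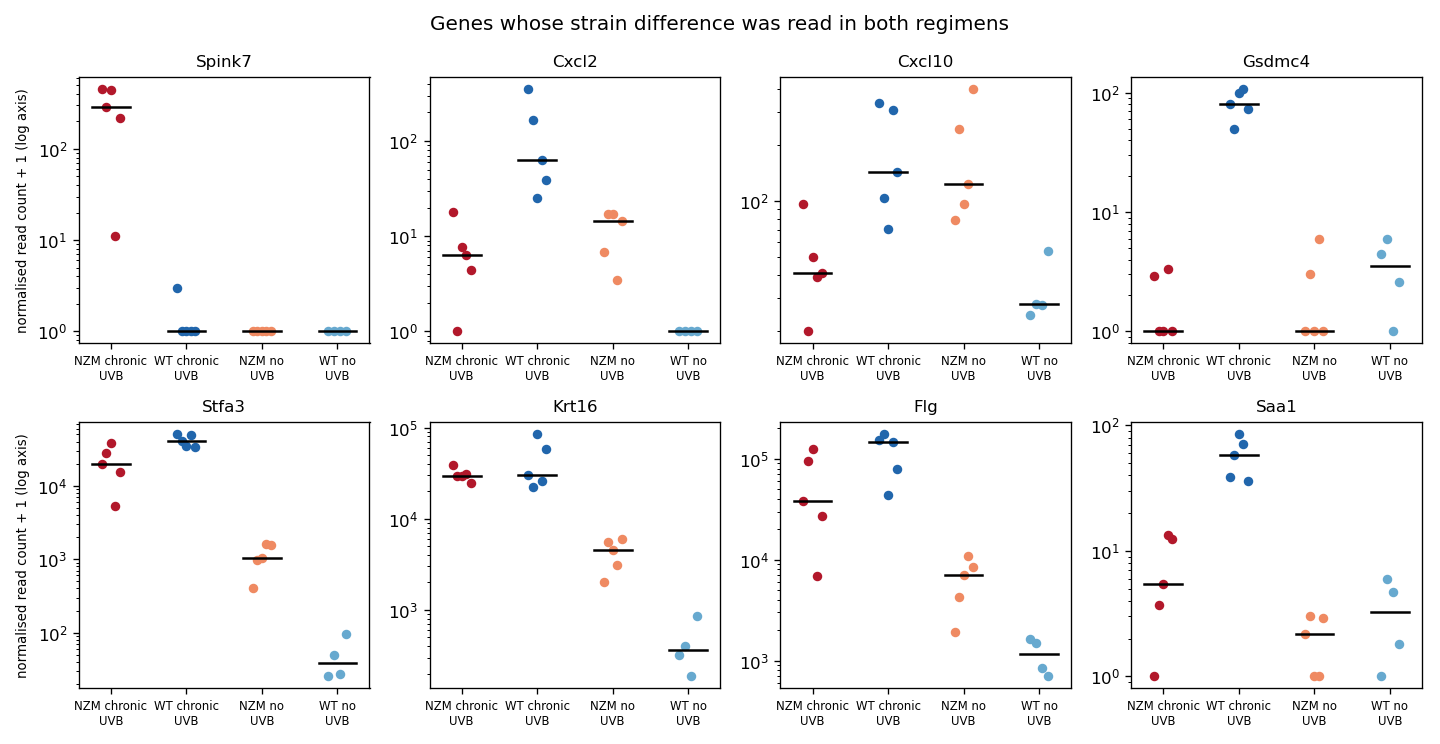
Normalised read count plus 1 on log axes for 8 genes, with 1 point per library and a line at the median, in NZM and WT skin after chronic UVB and in NZM and WT skin without UVB. Spink7 was read in NZM skin after chronic UVB, Gsdmc4 and Saa1 were highest in WT skin after chronic UVB, and Cxcl2, Cxcl10, Stfa3, Krt16 and Flg had higher medians in NZM than in WT skin without UVB only.

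Keratinocyte stress and alarmin genes differed between the strains mainly without UVB. Of 34 such genes, 1 was higher and 1 lower in NZM skin after chronic UVB (4.29% and 3.59% of all genes were). Their median log2 difference was -0.28. In unexposed NZM skin 15 were higher and 0 lower (7.47% of all genes were called higher there). The interaction was negative and called for 10 of the 34 (4.08% of all genes). Without WT libraries 44 and 45 the counts were 9 higher in unexposed skin and 3 with a negative interaction. Stfa3, a stefin that inhibits cathepsins, had 19800, 27800, 38800, 5230 and 15600 in NZM skin after chronic UVB, against 50200, 40600, 34700, 49300 and 33800 in WT skin. In unexposed skin it had 401, 968, 1030, 1610 and 1550 in the NZM libraries, against 24.4, 48.5, 26.6 and 94.6 in the WT libraries. The strain difference was not called after chronic UVB (-1.22 ± 0.69, adjusted p = 0.321) but was called without it (4.55 ± 0.73, adjusted p = 1.68e-05), with an interaction of -5.77 ± 1.0 (adjusted p = 0.0006), which stayed called without WT libraries 44 and 45 (0.00429) and without NZM libraries 17, 55 and 56 (0.022). Krt16, a keratin of stressed epidermis, lay between 24800 and 38700 in NZM skin after chronic UVB, against 22200 to 84300 in WT skin. Without UVB it lay between 2010 and 6050 in NZM skin, against 186 to 857 in WT skin (interaction -3.74 ± 1.04, adjusted p = 0.0235). Flg, which encodes filaggrin of the cornified layer, had an interaction of -3.82 ± 1.09 (adjusted p = 0.0263). The Krt16 and Flg interactions were not called without WT libraries 44 and 45 (adjusted p = 0.0851 and 0.168) or without NZM libraries 17, 55 and 56 (0.108 and 0.153), and Krt16 also lost its call without WT library 44 alone (0.0571) and Flg without any of 6 libraries (up to 0.0708).

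The alarmins called after chronic UVB were Saa1 and S100a7a. Saa1, an acute-phase protein, had 0, 2.69, 4.46, 12.3 and 11.4 in NZM skin, against 37.9, 57.4, 83.9, 70.6 and 35.3 in WT skin (log2 difference -3.44 ± 0.67, adjusted p = 0.00048), and stayed called without NZM libraries 17, 55 and 56 (-4.56, adjusted p = 0.000555). S100a7a, a calcium-binding protein of stressed epithelium, had 8.52, 664, 10.0, 839 and 1040 in NZM skin, against 7.98, 14.7, 20.7, 3.42 and 15.0 in WT skin (log2 difference 3.62 ± 1.18, adjusted p = 0.0499). Its high values were in the 3 NZM libraries with the highest hair scores, and without them the difference was -0.19 (adjusted p = 0.98). Its call was also lost without any of 8 single libraries (adjusted p up to 0.198). S100a8, a neutrophil and keratinocyte alarmin, did not pass the test after chronic UVB (1.11 ± 0.77, adjusted p = 0.445), nor did Krt6a (-0.56 ± 0.42, adjusted p = 0.499).

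Hair follicle genes were higher in 3 to 4 of the 5 NZM libraries. Of 30 hair shaft and inner root sheath genes, 15 were higher and 0 lower in NZM skin after chronic UVB, beside 4.29% and 3.59% of all genes. The median log2 difference was 7.23, and edgeR and DESeq2 called 22 and 28 higher. The summed level of the list was 767 to 729000 normalised counts in NZM skin (median 438000), against 919 to 3630 in WT skin (median 1150). Krt71, a keratin of the inner root sheath, had 10.4, 82200, 2870, 104000 and 119000 in NZM skin, against 146, 14.7, 12, 6.83 and 12.8 in WT skin (log2 difference 8.64 ± 2.71, adjusted p = 0.0403). Krtap4-6, a keratin-associated protein of the hair shaft, had 0.946, 2490, 106, 9380 and 5190 in NZM skin, against 0 in all 5 WT libraries, at least 5050-fold higher with a floor of 3 reads over the WT group (fitted log2 difference 8.90 ± 2.44, adjusted p = 0.0169). Krt72 and Krt34 had no read in any WT library and none in NZM library 54. Of the 30 genes, 3 did not overlap between the strains, beside 3.38% of all genes with NZM higher. The difference in the list came from NZM libraries 17, 55 and 56, with 18 between. Krtap3-3, Krtap16-1, Krtap28-13 and Krt36, and the genes Bmp8a, a growth factor, and Bhlha9, a transcription factor, were high in the same 3 libraries. Without these libraries 0 of the 30 hair genes were called and the median was 2.71. The libraries had been picked for high scores over these same 30 genes, so the loss of calls in the list is not a separate test. Bmp8a and Bhlha9 were not called without these libraries either (adjusted p = 0.546 and 0.794). Leaving out only NZM library 55 or only 56 also left 0 called, and leaving out 17 left 1.

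Hair grows in cycles, and the inner root sheath and shaft are built only in the growing phase. Of 29 hair cycle signal genes, 1 was higher and 1 lower (4.29% and 3.59% of all genes were). With the hair covariate 0 were higher and 8 lower. Alpl, alkaline phosphatase of the dermal papilla, was at 1.24 ± 0.32 (adjusted p = 0.0112) and Lgr6, a stem cell receptor, at -0.86 ± 0.26 (adjusted p = 0.0305). Neither was called without NZM libraries 17, 55 and 56 (adjusted p = 0.564 and 0.6), and Alpl lost its call without NZM library 55 or WT library 29, and Lgr6 without any of 6 libraries. Of 14 melanocyte genes 0 were called, 1 had an unadjusted p below 0.05, and edgeR and DESeq2 called 0. Their median log2 difference was 0.70, but -2.78 without NZM libraries 17, 55 and 56, and with the hair covariate 11 were lower (median -3.48). Tyr, the key enzyme of melanin synthesis, had 36, 2190, 41.2, 3070 and 3270 in NZM skin, against 1120, 308, 207, 221 and 167 in WT skin (log2 difference 0.73 ± 1.56, adjusted p = 0.855). It was high in the same 3 NZM libraries, and the groups overlapped. With the hair covariate Tyr was at -3.89 (adjusted p = 6.1e-07).

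**Figure D4:**
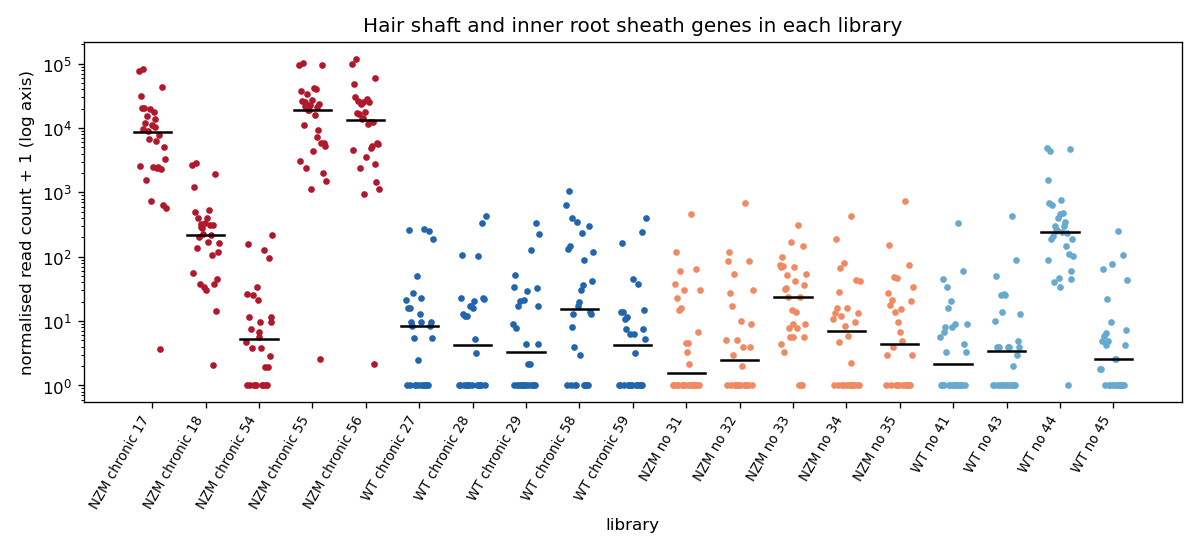
Normalised read count plus 1 on a log axis for 30 hair shaft and inner root sheath genes, with 1 point per gene and a black line at the library's median. Only libraries of NZM and WT skin after chronic UVB and without UVB are shown. The medians of NZM chronic UVB libraries 17, 55 and 56 lie far above those of the other libraries shown. NZM chronic UVB library 18 and WT no UVB library 44 lie between. Among groups not shown, the hair score lay between -3.11 and 9.23 in iNZM chronic UVB libraries. It lay between -3.53 and 7.65 in NZM acute UVB and between -3.64 and 2.72 in WT acute UVB libraries.

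Among lymphocyte genes, Cd3e, Cd3g, Igkc and Jchain were higher in NZM skin and Cd8b1 was lower. In whole skin, more cells of a type cannot be told apart from more RNA per cell. Of 22 T cell genes, 2 were higher and 3 lower (4.29% and 3.59% of all genes were), and 15 had a log2 difference above 0 (median 0.42). With the hair covariate 9 were higher and 1 lower. Cd3e, a signalling chain of the T cell receptor, had 153, 36.7, 95.8, 43.2 and 26.3 in NZM skin, against 22.0, 19.1, 19.6, 20.5 and 10.7 in WT skin (log2 difference 1.63 ± 0.48, adjusted p = 0.0269). Cd3g, its partner, was at 1.52 ± 0.47 (adjusted p = 0.0398). Neither gene overlapped between the strains, and without NZM libraries 17, 55 and 56 both were larger, at 2.69 (adjusted p = 0.00413) and 2.33 (adjusted p = 0.0248). The Cd3e call was lost without NZM library 54 or 18 or WT library 59 (adjusted p up to 0.0963). Cd8b1, a chain of the CD8 co-receptor, had 2.84, 0, 0, 0 and 2.29 in NZM skin, against 8.98, 14.7, 9.8, 13.7 and 6.42 in WT skin (log2 difference -2.77 ± 0.71, adjusted p = 0.00963), and was not called without the 3 NZM libraries (-2.53, adjusted p = 0.187). The other 2 lower genes of the list were the chemokines Cxcl10 and Cxcl11. Trdc, the constant region of the delta receptor chain, was not called after chronic UVB (1.20 ± 0.57, adjusted p = 0.223). The summed level of the T cell list was 947 to 2190 in NZM skin, against 1160 to 1900 in WT skin.

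Of 10 B and plasma cell genes, 2 were higher and 0 lower (4.29% and 3.59% of all genes were), and edgeR and DESeq2 called the same counts. Igkc, the constant region of the kappa light chain, had 234, 78.8, 182, 32.4 and 96.0 in NZM skin, against 2.99, 0, 4.36, 0 and 1.07 in WT skin (log2 difference 5.58 ± 1.21, adjusted p = 0.00178). Jchain, which joins secreted IgA and IgM, had 116, 50.1, 82.4, 20 and 43.4 in NZM skin, against 2.99, 5.89, 0, 0 and 0 in WT skin (log2 difference 4.80 ± 1.20, adjusted p = 0.00762). Every NZM library was above every WT library for both genes. Both stayed called without NZM libraries 17, 55 and 56 (adjusted p = 0.0142 and 0.0451). In unexposed skin neither was called (1.90 ± 1.28 and 1.01 ± 1.27), and the interactions did not pass the test (adjusted p = 0.191 and 0.173).

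The counts in the myeloid lists are to be read against the 7.88% called over all genes tested. Of 15 neutrophil and 16 macrophage genes 0 were called by limma, with 1 and 2 at an unadjusted p below 0.05. DESeq2 called 0 and 3 higher and edgeR 0 and 1. The median log2 difference was 0.21 for neutrophil and 0.93 for macrophage genes. With the hair covariate 2 neutrophil and 7 macrophage genes were higher and 0 lower, and 5 of 17 monocyte genes and 4 of 18 dendritic and Langerhans cell genes were higher. Of 17 monocyte genes, F10, coagulation factor X, was higher (2.69 ± 0.79, adjusted p = 0.026), and Chil3, a chitinase-like lectin, was lower, at 0 in all 5 NZM libraries, against 0.998 to 7.62 in WT skin. Of 18 dendritic and Langerhans cell genes, 1 was higher, the maturation marker Cd83 (1.48 ± 0.44, adjusted p = 0.0276). F10 lost its call without any of 4 libraries and Cd83 without any of 5 (adjusted p up to 0.122 and 0.128), and F10 was not called without NZM libraries 17, 55 and 56 (adjusted p = 0.0818). Cd207, the langerin of Langerhans cells, had 438, 174, 383, 107 and 157 in NZM skin, against 191, 337, 163, 290 and 91.0 in WT skin (0.16 ± 0.50, adjusted p = 0.907). H2-Ab1, of MHC class II, was at -0.45 ± 0.48 (adjusted p = 0.663). Of 12 mast cell genes, 10 had a log2 difference above 0 (median 1.40) and 8 an unadjusted p below 0.05, while 1 was called by limma, the tryptase Tpsab1, which was lower. DESeq2 called 1 higher and 1 lower, and with the hair covariate 9 were higher and 1 lower. Tpsab1 had 19.9, 0, 3.34, 2.31 and 6.86 in NZM skin, against 74.8, 138, 133, 36.4 and 82.4 in WT skin (log2 difference -4.17 ± 0.78, adjusted p = 0.000284), and was at -3.16 without the 3 NZM libraries (adjusted p = 0.083).

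In the lists of sebaceous gland, DNA repair, p53 target and remodelling genes 1 gene each was called, and 2 in that of antioxidant genes, beside 7.88% over all genes tested. Acsbg1, an acyl-CoA synthetase, was the only 1 of 14 sebaceous gland genes called. It had 2420, 1500, 1930, 556 and 849 in NZM skin, against 9280, 18000, 11900, 11800 and 15200 in WT skin (log2 difference -3.34 ± 0.38, adjusted p = 1.47e-08), and was at -2.58 without the 3 NZM libraries (adjusted p = 0.000254). Its difference was smaller in unexposed skin, at -1.40 ± 0.40 (interaction -1.94 ± 0.55, adjusted p = 0.0257), but the interaction was not called without WT libraries 44 and 45 (0.163), without NZM libraries 17, 55 and 56 (0.253), or without any of 5 single libraries (up to 0.0626). Xpa, a damage-verification protein of nucleotide excision repair, had 455, 467, 618, 352 and 487 in NZM skin, against 787, 889, 737, 876 and 589 in WT skin (log2 difference -0.71 ± 0.13, adjusted p = 0.000185), and was 1 of 18 repair genes called. Zmat3, a p53 target, was at -0.77 ± 0.16 (adjusted p = 0.00133), and was 1 of 26 p53 targets called, while Cdkn1a, the cell cycle inhibitor p21, was at 0.08 ± 0.22 (adjusted p = 0.887). Txnrd1, thioredoxin reductase, was at 1.19 ± 0.26 (adjusted p = 0.00164) and Prdx1, a peroxiredoxin, at -0.67 ± 0.15 (adjusted p = 0.00239), of 15 NRF2-driven genes. Plau, the urokinase protease, was at -0.88 ± 0.28 (adjusted p = 0.043). Of these 6, Acsbg1 alone stayed called without NZM libraries 17, 55 and 56, with Xpa at adjusted p = 0.0714, Zmat3 at 0.265, Txnrd1 at 0.215, Prdx1 at 0.0824 and Plau at 0.586, and Plau lost its call without any of 6 single libraries.

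In 15 of the 33 gene lists no gene was called after chronic UVB. These include epidermal differentiation, basal keratinocyte, barrier lipid, proliferation, circadian clock, adipocyte, skeletal muscle, endothelial, fibroblast, complement and interleukin-1 genes. Over the 258 genes of these lists, 25 had an unadjusted p below 0.05, edgeR called 3 higher and 1 lower, and DESeq2 called 5 higher and 1 lower. The fit with the hair covariate called 32 higher and 20 lower, among them 7 of 17 skeletal muscle, 7 of 16 macrophage and 5 of 7 MHC class II genes higher, and 11 of 14 melanocyte and 7 of 27 proliferation genes lower. The proliferation marker Mki67 was at -0.06 ± 0.48 (adjusted p = 0.971). In unexposed skin, 15 of 20 fibroblast and matrix genes and 10 of 15 complement and Fc receptor genes were lower in NZM skin (7.49% of all genes were). Without WT libraries 44 and 45 these counts were 0 and 1.

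**Figure D5:**
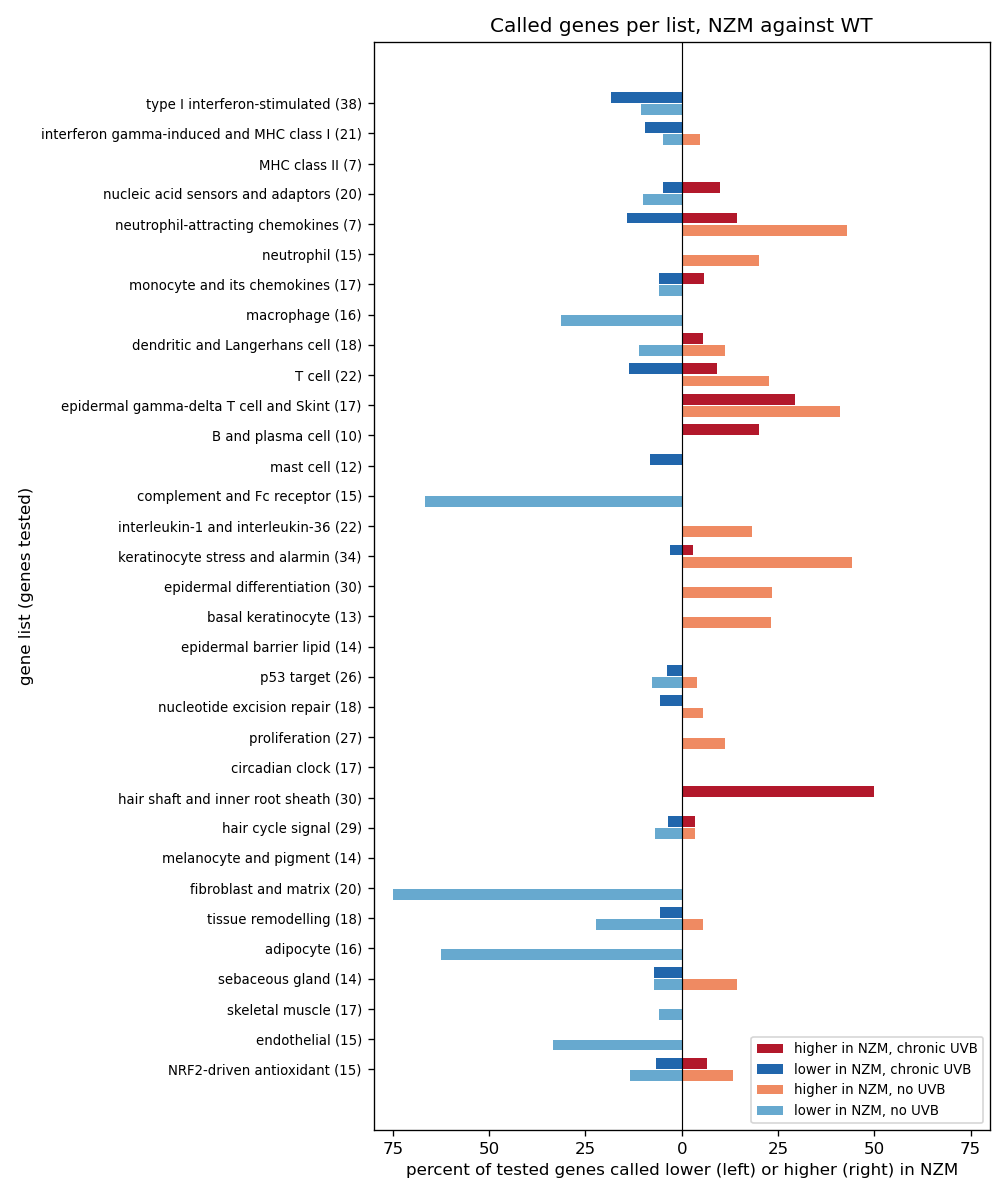
Percent of tested genes called higher (right of 0) or lower (left of 0) in NZM against WT skin in each of 33 gene lists, after chronic UVB (darker bars) and without UVB (lighter bars), with the number of genes tested in brackets. Hair shaft and inner root sheath genes have the longest bar after chronic UVB, with 15 of 30 called, and fibroblast and matrix genes the longest without UVB, with 15 of 20.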

How the data were processed

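RNA from mouse skin was sequenced as poly-A-selected libraries with paired reads of 151 bases, per the labels' protocols. Per the submitters' processing notes, STAR, HTSeq and DESeq2 were used with build mm10; their versions, the gene annotation and any filter are not given in the sources used here. The authors deposited 1 table of 43 libraries, whose values behave as a normalised signal: gene read counts divided by a size factor per library. In every column, 100.0% of the values were whole reads, within 0.01, after multiplication by a recovered factor, which gave the depths.

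A value of 10 or more in at least 4 libraries was required, and 1 was added before taking log2. limma 3.58.1 in R 4.3.3 fitted 9 group means over all 43 libraries, with 1 trended spread per gene, and Benjamini-Hochberg adjustment over 19170 genes (two-sided, threshold 0.05). A fold change on this scale understates the change of low genes. The interaction is the strain difference after chronic UVB minus that without UVB. Alternatives were the recovered reads in edgeR 4.0.16 and in DESeq2 1.42.0, and other scalings, filters and subsets. The limma test was also run on simulated counts with the same dispersion for every gene. Those counts held no differences in hair content between libraries, so that run does not cover the spread seen here. The labels do not say that each library is a separate animal, so p-values measure the spread between these samples. Within the NZM and within the WT chronic UVB group, no 2 libraries agreed within sampling noise, and other groups were not checked for this. Floors cover counting error only.

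Members and gene lists were chosen with earlier results of these data known. Named genes were up to 12 per direction with the largest difference among called genes whose groups did not overlap and with a mean of 100 or more, without predicted models and receptor segments, up to 4 genes with the smallest p in each list that held a called gene, a short fixed set, and up to 4 per direction with the largest called interaction. Positions are from GENCODE vM21. Of the symbols, 16763 (72.1%) matched a set of reference gene names that includes those of RefSeq. Of the called interferon-stimulated genes, 1 is counted in its list but not reported here. Columns of iNZM mice and of acute UVB were not compared here. They entered the filter, the spread, the gene means behind the scores and alternative fits such as that with the hair covariate.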

Additional observations from a re-analysis of the deposited data

Results flagged for a closer look

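Among 96 sets of values of named genes and depths, 1 library stood far from the other 4 of its group in 11, where chance gives about 1 in 20. In NZM skin after chronic UVB, library 17 had 13.4 normalised counts of Pde6a against 3.86 or less, library 54 had 291 of Ccl2 against 69.1 or less, library 55 had 13200 of Krt6a against 6250 or less, and library 56 had 37.76 M reads against 27.03 M or less. In WT skin after chronic UVB, library 58 was highest for Spink7 (2.0 against 0), Krt71 (146 against 14.7 or less), Tyr (1120 against 308 or less) and Foxi3 (709 against 253 or less). WT library 28 was highest for Bmp8a (6.53 against 1.07 or less), WT library 27 for Bhlha9 (11.8 against 2.28 or less), and WT library 59 was lowest for Ccl2 (46.0 against 73.8 or more).

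The strain difference after chronic UVB differed from that in unexposed skin for 12 of 46 genes examined in this way, by the limma interaction. Over all genes tested the share was 7.58%. Up to 4 of the 46 per direction had been named for a large called interaction, so the count is not a result about these genes. It was more positive after chronic UVB for Bmp8a (9.22 on the log2 scale, adjusted p = 0.00613), Krt36 (8.72, adjusted p = 0.026), Bhlha9 (8.59, adjusted p = 0.0372) and Spink7 (7.09, adjusted p = 0.00128). It was more negative for Cxcl2 (-7.28, adjusted p = 0.00119), Stfa3 (-5.77, adjusted p = 0.0006), Cyp2g1 (-5.38, adjusted p = 0.00208), Foxi3 (-4.33, adjusted p = 0.0346), Cxcl10 (-4.20, adjusted p = 0.00128), Flg (-3.82, adjusted p = 0.0263), Krt16 (-3.74, adjusted p = 0.0235) and Skint4 (-1.51, adjusted p = 0.0344). Bmp8a, Krt36 and Bhlha9 were high in the NZM libraries with high hair scores, and without those 3 libraries their interactions were not called (adjusted p = 0.101, 0.254 and 0.342), nor without WT libraries 44 and 45 (0.0695, 0.161 and 0.15).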

How the results depend on the processing

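The number of genes called after chronic UVB (1511) moved by over 1.5 times without NZM library 56 (995) and under 5 other alternatives. Sample quality weights gave 2823 (1518 higher, 1305 lower), a hair score covariate 2660 (1472 and 1188), leaving out NZM libraries 17, 55 and 56 gave 631 (362 and 269), sample numbers below 46 alone 448 (225 and 223), and numbers 46 or above 518 (267 and 251). Leaving out 1 library gave 995 to 1755 calls, and 507, without NZM library 56, to 981 higher calls (545 without NZM library 55). The count in unexposed skin was 4457 with weights and 1197 without WT libraries 44 and 45 (a choice made after seeing the data), and 1662, without unexposed WT library 45, to 2743 without 1 library. The interaction count was 2187 with the compared groups alone, 3088 with weights, 4223 with the hair covariate, 352 without NZM libraries 17, 55 and 56, 296 without WT libraries 44 and 45, 2530 by DESeq2, and 608, without unexposed WT library 45, to 1719 without 1 library (928 without NZM library 55, 894 without 56, 933 without unexposed NZM library 34, and 892 without WT library 29). The cause of these shifts was not tested. Of 118 named genes, 70 were called after chronic UVB, and 19 of these were called under every alternative run; 26 lost the call without some single library and 36 without NZM libraries 17, 55 and 56.

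The sign of the difference after chronic UVB turned round in 37 pairs of gene and setting. Without NZM libraries 17, 55 and 56 it was -0.19 for S100a7a, -2.95 for Tyr, -0.11 for Msx2, 0.16 for Scd3, -0.03 for Ifnar1 and 0.33 for H2-Ab1. With the hair covariate it was 0.24 for Ccl4, -0.05 for Wnt5a, -0.73 for Msx2, 0.34 for Scd3, 0.34 for Elovl3, 0.96 for Krt16, 0.69 for H2-Ab1 and -3.89 for Tyr. With sample numbers below 46 it was -0.01 for Cxcl5, -0.30 for Timp3, -0.08 for Ifnar1, -0.62 for Ccl2, 0.06 for Flg, 0.11 for Mki67 and -0.04 for Cdkn1a, and with the higher numbers 0.29 for Irf7. It was 0.02 for Mki67 by edgeR, and with weights -0.04 for Cd207 and -0.00 for Cdkn1a. Without 1 library, Ifnar1 ran over -0.01 to 0.08, Irf7 -0.45 to 0.04, Ccl2 -0.25 to 0.43, Mki67 -0.29 to 0.10, Cd207 -0.11 to 0.42 and Cdkn1a -0.10 to 0.21. No paired analysis was possible because the sample numbers are unique to each library. Depth limits the genes read at a few counts, such as Chil3, Il17a and Cd8b1.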

Other observations

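Of 16 mitochondrial genes tested, 3 were higher and 2 lower in NZM skin after chronic UVB and 11 were not called, beside 7.88% called over all genes tested. These genes were chosen after their values were seen. The genes mt-Nd3, mt-Co3 and mt-Atp8, subunits of respiratory complexes, were higher in NZM skin after chronic UVB. mt-Nd3 had 1470, 2640, 2820, 729 and 1370 normalised counts in NZM skin, against 259, 281, 89.3, 104 and 157 in WT skin (log2 difference 3.32 ± 0.46, adjusted p = 1.66e-06). mt-Co3 was at 2.24 ± 0.41 (adjusted p = 0.000188) and mt-Atp8 at 1.89 ± 0.43 (adjusted p = 0.00344), and in unexposed skin the 3 genes were at 4.33, 3.38 and 3.23. No NZM library overlapped a WT library for any of them. mt-Nd1, of the same genome, was lower after chronic UVB, at -1.61 ± 0.48 (adjusted p = 0.0307), and mt-Tp, a transfer RNA, at -1.43 ± 0.43 (adjusted p = 0.0311). The calls of mt-Nd1 and mt-Tp were lost without any of 5 single libraries (adjusted p up to 0.119 and 0.134). Nuclear copies of mitochondrial genes could share reads with them.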
